A study of Danio rerio with 8 samples.

Results

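The genes described here encode the matrix metalloproteinases (mmp), the ADAMTS proteases (adamts), the ADAMTS-like proteins (adamtsl) and the tissue inhibitors of metalloproteinases (timp) of the zebrafish. They were chosen by name alone: every row of the count table whose gene name begins with mmp and a digit, with adamts, or with timp and a digit. The rule found 51 of 32520 rows. These carry 48 distinct names, since mmp13a, adamts15b and mmp15a each name 2 rows. By class there were 25 mmp rows, 17 adamts rows, 4 adamtsl rows and 5 timp rows.

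Matrix metalloproteinases are zinc-dependent proteases, secreted or held at the cell surface, that are made as inactive precursors and cleave collagens and other components of the extracellular matrix. ADAMTS proteases are secreted relatives whose thrombospondin repeats bind them to the matrix, where they cut proteoglycans, process procollagens or act on microfibrils. ADAMTS-like proteins keep the thrombospondin repeats but lack the protease domain, and TIMPs bind the active site of metalloproteinases and block it. In mammals these enzymes take part in vessel growth, in the turnover of cartilage and in the migration of leukocytes.

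Bulk RNA-seq was carried out on GFP-positive cells sorted at 96 hours post fertilization (hpf) from larvae of the line Tg(fli1:EGFP)y1, given as wild type in the labels, in 8 libraries. The 4 control libraries came from larvae injected with a standard control morpholino, and the 4 libraries labelled Hpa2 loss-of-function (LOF-labelled below) from larvae injected with a morpholino against exon-intron junction 10 of hpse2, the gene of heparanase 2. Morpholinos are antisense oligomers, and both were given in equal molar amounts at the start of development. Between 60 and 80 larvae were pooled, dissociated with trypsin and sorted without dead cells. In this line fli1a regulatory sequence drives GFP, which marks endothelium and also cranial neural crest derivatives, so the sort is not purely vascular. Each group holds 2 biological replicates of 2 libraries, numbered 1_1, 1_2, 2_1 and 2_2. Whether both libraries of such a replicate were made from different pools is not said in the labels, so p-values may measure technical spread in part.

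Library totals lay between 5048839 and 11344918 counts. The targeted gene hpse2 had 232, 98, 259 and 385 counts in the controls and 659, 801, 358 and 364 in the LOF-labelled libraries, in the order above, and its level was 28.5 ± 5.78 CPM and 65.8 ± 20.3 CPM (mean ± SD, n = 4). The log2 fold change of hpse2 was 1.20 (SE 0.23, adjusted p = 0.130, edgeR), and it was not called. Blocking a splice site can lower the count of the target, leave it as it is or raise it, so the loss of function cannot be checked from these values. All 12 endothelial markers, such as kdrl and cdh5, were detected, with summed levels of 621 to 904 CPM in controls and 636 to 903 CPM under the LOF label. Most of this sum was fli1a, at a mean of 482 of 769 CPM in controls and 475 of 760 CPM under the LOF label. As its regulatory sequence also marks neural crest derivatives, the sum is not a measure of endothelium alone. The 10 cartilage markers summed to 19196 to 24770 CPM in controls and 11164 to 15219 CPM under the LOF label, with snorc at 0 in all of them, and the 11 fibroblast markers to 28698 to 33580 CPM and 32337 to 40461 CPM. In bulk samples, fewer cells of a type and less RNA per cell cannot be told apart. The first principal component of all tested genes held 40.3% of the variance and did not follow the groups. Controls 1_1 and 1_2 fell on one side beside LOF-labelled 2_1 and 2_2 (below, the first library set). On the other side lay controls 2_1 and 2_2 together with the LOF-labelled pair 1_1 and 1_2 (the second set). Differences within each set are therefore given beside the results.

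The sorted cells held transcripts of all 4 classes, and few members carried most of the signal. Of the 51 rows, 36 passed the low-count filter and were tested: 13 mmp, 15 adamts, 3 adamtsl and 5 timp rows. The other 15 rows, 12 of them mmp, were too sparse to test. Among these, mmp13b (71 counts over all 8 libraries), adamts8a (65), mmp24 (55) and mmp28 (45) had the most reads, and these genes were chosen after their values were seen. No read was counted for mmp20a, adamts13 or the mmp15a row ENSDARG00000051959. With 65139156 counts over the 8 libraries, 3 counts or 0.0461 CPM is the level that a count of 0 allows, which covers counting error only.

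Levels of different genes were compared per length, as reads per kilobase of the deposited gene length, scaled by TMM-normalized totals of the genes tested (RPKM). The highest member was mmp2, the gelatinase A gene, at a mean of 320 RPKM over the 8 libraries. It was followed by mmp14a, which encodes a membrane-type protease, at 193 RPKM and by the inhibitor timp2a at 98.5 RPKM. The protease adamts1 came next at 67.2 RPKM and mmp9, the gelatinase B gene, at 34.5 RPKM. Within the mmp class, mmp2 held 48.0% and mmp14a 29.0% of the summed RPKM, and within the timp class timp2a held 72.6% and timp4.2 15.4%. The adamts sum was spread more evenly, with 38.6% in adamts1 and 13.8% in adamts10, and adamtsl2 and adamtsl3 held 40.3% and 35.5% of the adamtsl sum. The lowest tested member was at 0.547 RPKM.

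**Figure D1:**
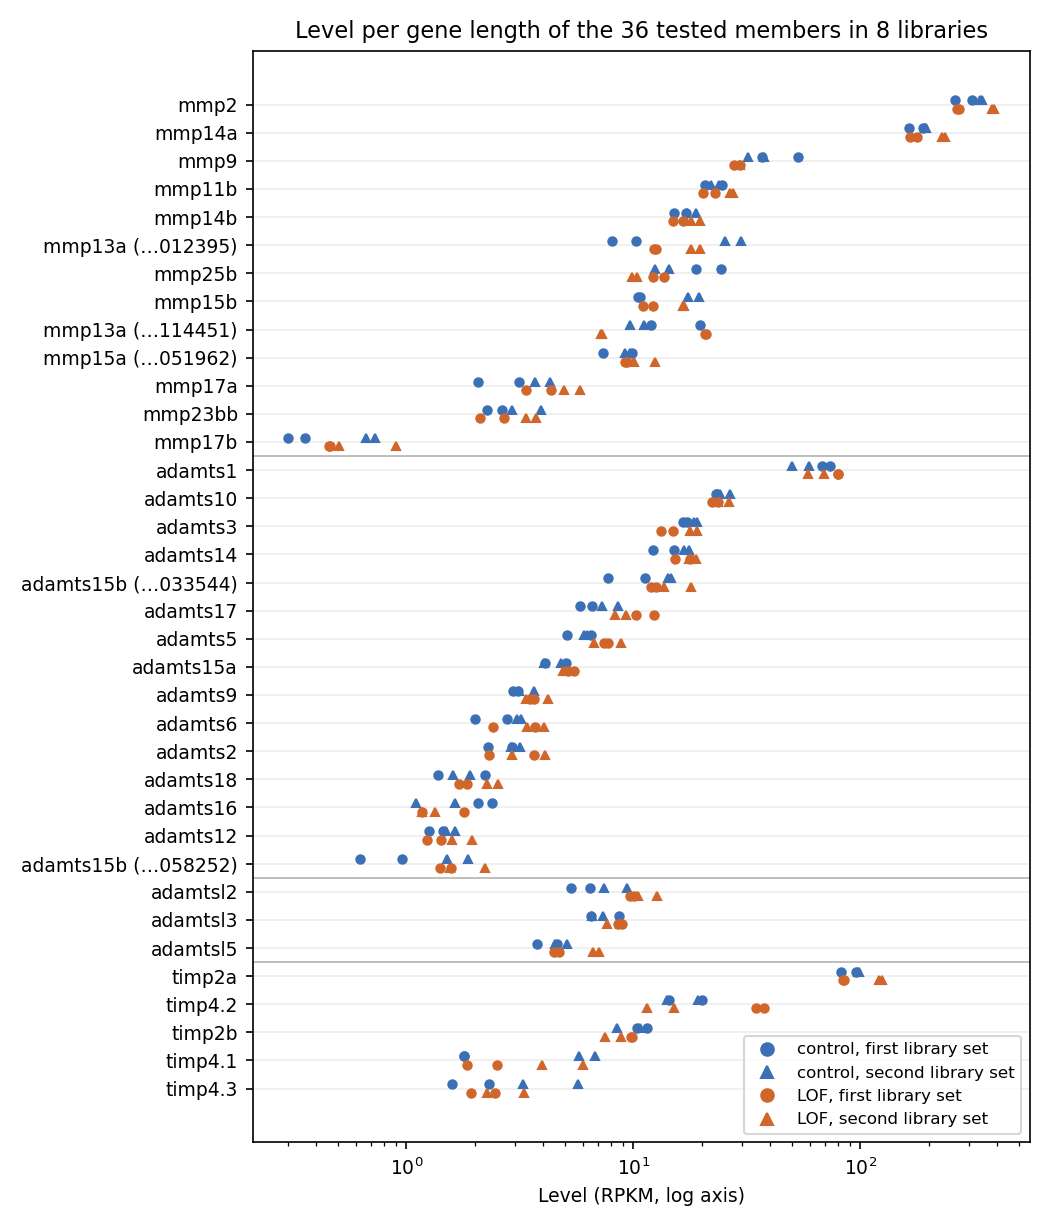
Level of each of the 36 tested members in every library, as RPKM on a logarithmic axis, ordered by class and mean level. Circles are libraries of the first set and triangles of the second, controls in blue and LOF-labelled libraries in orange. The mmp class runs from 320 RPKM for mmp2 to 0.547 RPKM for mmp17b, and the symbols of the groups overlap for most members.

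The annotation deposited with the counts gives the domains that separate these classes. The matrixin protease domain was listed for 22 of 25 mmp rows and the hemopexin domain for 21. The fibronectin type II repeat, through which gelatinases bind denatured collagen, was listed for mmp2 and mmp9 and for no other member. All 17 adamts rows carried the reprolysin protease domain and thrombospondin type 1 repeats, whereas the 4 adamtsl rows carried the repeats and none carried the protease domain. All 5 timp rows carried the TIMP domain. For mmp14a no domain was listed. Both mmp15a rows were annotated with domains of other proteins, and the tested mmp15a row overlaps vac14 on the opposite strand, so its value is uncertain. In all, 17 members overlap another row, and the use of strand in counting is not given in the sources used here.

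The groups were compared to see whether expression of these genes in the sorted cells differs after loss of Hpa2. No member was called by the edgeR quasi-likelihood test over all genes at an adjusted p under 0.05. The lowest adjusted p among the members was 0.474, for adamtsl2. Over all 15559 genes tested, 14 were called, which is 0.0900%, so few calls were made anywhere. At an unadjusted p under 0.05, adamtsl2, adamts17 and adamts5 had higher levels in the LOF-labelled libraries, 8.33% of the 36 tested members against 2.96% of all genes tested. In the other direction stood mmp9 and mmp25b, 5.56% of the members against 3.33% of all genes. The groups did not overlap for adamtsl2 and adamts5, both higher in the LOF-labelled libraries (5.56% of the members against 2.03% of all genes), nor for mmp9, which was lower (2.78% against 2.62%). The lower counts are near their backgrounds, and the higher counts rest on 3 and 2 genes.

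Small positive differences were more frequent than negative ones among the members. The fitted log2 fold change was above 0 for 26 of 36 members and below 0 for 10, with a median of 0.15, while the median over all genes was 0.00 and 49.7% of them lay below 0. Within the library sets the member medians were 0.16 and 0.15, and 22 of the 36 members, 61.1%, had the same sign in both, near the 57.7% of all genes. The classes differed in this, with 14 of 15 adamts and 3 of 3 adamtsl members of the same sign, but 4 of 13 mmp and 1 of 5 timp members. The adamts median was 0.20, with 12 above 0 and 3 below, and the adamtsl median was 0.34, with all 3 above 0. With each library left out in turn the adamts median ran from 0.12 (without LOF-labelled 1_2) to 0.24 and the adamtsl median from 0.23 (without LOF-labelled 1_2) to 0.45, and without control 1_2 the adamts median was 0.13. The mmp median was 0.07, with 9 above 0 and 4 below, and the timp median was −0.19, with 2 above 0 and 3 below. By set, the adamts median was 0.22 and 0.16 and the adamtsl median 0.22 and 0.47, whereas the mmp median was −0.03 and 0.06 and the timp median 0.16 and −0.31. Among the lists of other cell types, all 6 mural markers lay above 0, with a median of 0.20 and medians of 0.15 and 0.14 within the sets, and their summed level was 676 to 941 CPM in controls and 812 to 1081 CPM under the LOF label. The fibroblast markers had 9 of 11 genes above 0, and the cartilage markers all 9 tested genes below 0, with 3 called. Of the tested macrophage markers 5 of 6 and of the tested erythrocyte markers 3 of 3 lay above 0. All 5 photoreceptor and all 3 tested epidermis markers lay below 0, and no gene of these lists was called. Within the first and second set the medians were 0.79 and 0.02 for the macrophage markers and 0.52 and −0.17 for the erythrocyte markers. For the photoreceptor markers they were −0.93 and −0.22, and for the epidermis markers −0.47 and −0.06. For the fibroblast markers they were 0.01 and 0.18, and for the cartilage markers −1.03 and −0.37. The part of these cells in the members' values was not tested.

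**Figure D2:**
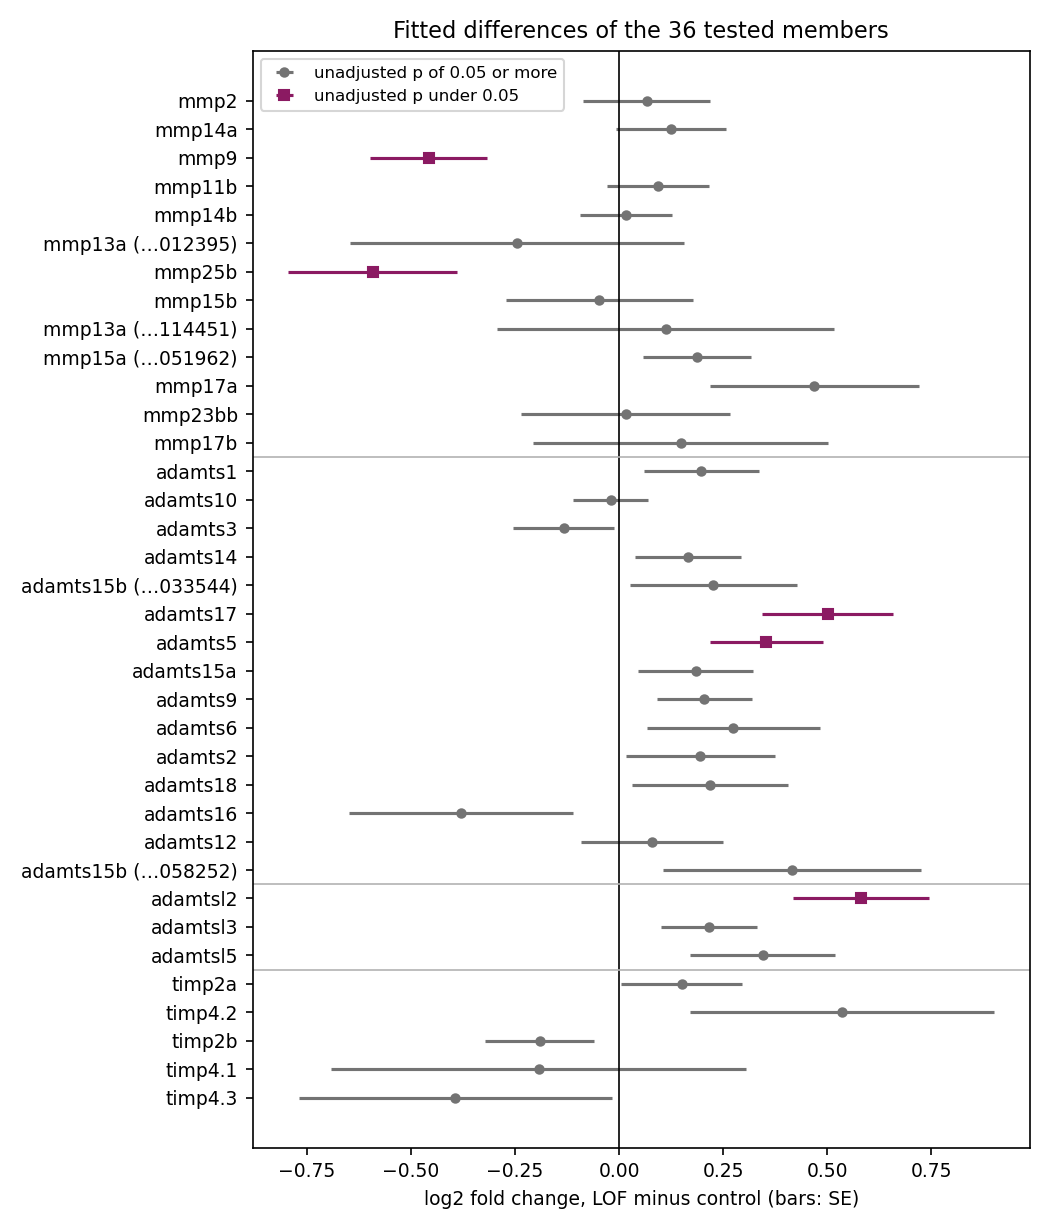
Fitted log2 fold change, LOF-labelled minus control, of the 36 tested members, with bars of 1 standard error (SE), ordered by class and level. Magenta squares mark the 5 members at an unadjusted p under 0.05, none of which was called after adjustment. Among adamts and adamtsl members 15 of 18 points lie to the right of 0.

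The gelatinase A gene mmp2 and its partners were the most abundant members and did not separate the groups. In mammals, the membrane-type protease MMP14 and the inhibitor TIMP2 together bind the precursor of MMP2 at the cell surface, where MMP14 activates it. The level of mmp2 was 939, 791, 1046 and 1017 CPM in controls and 1153, 1181, 811 and 828 CPM under the LOF label. Both LOF-labelled libraries of the second set lay above all controls, while the others lay among the lower controls. For mmp14a the controls had 663, 574, 677 and 682 CPM and the LOF-labelled libraries 801, 828, 580 and 621 CPM. The inhibitor timp2a was at 298, 256, 308 and 306 CPM in controls and at 379, 388, 266 and 263 CPM under the LOF label. For all 3 genes LOF-labelled 1_1 and 1_2 were the highest libraries, and the groups overlapped. The log2 fold change was 0.07 (SE 0.15) for mmp2, 0.12 (SE 0.13) for mmp14a and 0.15 (SE 0.14) for timp2a, and their adjusted p values were 0.977, 0.937 and 0.922 (edgeR). Within the first set their differences were −0.07, −0.04 and −0.06, and within the second 0.18, 0.26 and 0.32.

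The ratio of protease to inhibitor stayed within a narrow range. The log2 ratio of mmp2 to timp2a, on the RPKM scale, was 1.70, 1.67, 1.81 and 1.78 in the controls and 1.65, 1.65, 1.65 and 1.70 in the LOF-labelled libraries. Its mean was 1.74 ± 0.06 in the controls and 1.66 ± 0.02 in the LOF-labelled libraries (SD, n = 4), and the groups overlapped. For mmp14a to timp2a the ratio lay between 0.91 and 1.07 in the 8 libraries. The second copy of the membrane-type gene, mmp14b, was far less abundant than mmp14a in every library, by a log2 ratio of 3.37 to 3.68. Its fold change was 0.02 (SE 0.11), with 76.3 ± 6.91 CPM in controls and 77.3 ± 9.12 CPM under the LOF label.

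**Figure D3:**
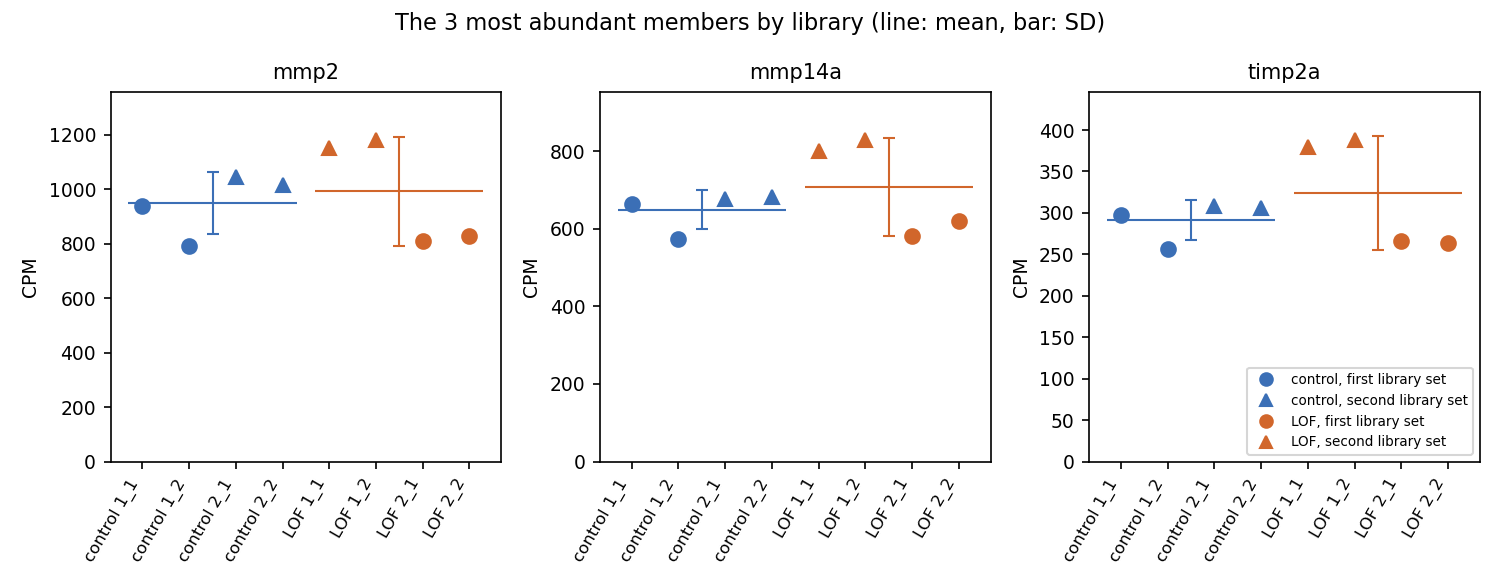
Level of mmp2, mmp14a and timp2a in each library, in CPM on axes that start at 0, with the group mean as a line and the SD as a bar (n = 4). In all 3 panels LOF-labelled libraries 1_1 and 1_2 lie highest and LOF-labelled 2_1 and 2_2 lie below most controls.

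The gelatinase B gene mmp9 was lower in every LOF-labelled library than in any control, without reaching the adjusted threshold. In mammals its product is stored in neutrophil granules, and it is also made by other leukocytes and by osteoclasts. Its level was 116, 167, 118 and 100.03 CPM in controls and 91.5, 92.6, 92.8 and 86.8 CPM under the LOF label. The LOF-labelled values lay close together, while the controls spread more widely, with control 1_2 the highest. The means were 125 ± 29.0 and 90.9 ± 2.82 CPM (SD, n = 4), a log2 change of −0.46 (SE 0.14, adjusted p = 0.543, edgeR), with −0.63 within the first set and −0.24 within the second. Without control 1_2 it was −0.29. A membrane-type gene, mmp25b, whose human counterpart is held by a lipid anchor and known from leukocytes, was at 32.6, 41.8, 24.8 and 21.5 CPM in controls and 18.0, 17.1, 20.9 and 23.5 CPM under the LOF label. Here the groups overlapped, since LOF-labelled 2_2 lay above control 2_2. The fitted log2 difference was −0.59 (SE 0.20, adjusted p = 0.588, edgeR), with −0.73 within the first set and −0.40 within the second.

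Genes of the neutrophil list lay in the same direction. The 6 listed genes, none at 0, summed to 1049, 1304, 900 and 802 CPM in controls and 724, 615, 907 and 881 CPM under the LOF label. All 6 had a fold change below 0 and none was called. Of these cpa5, il6r and srgn are not confined to neutrophils, so the sum does not measure neutrophils alone. The gene lyz was at only 2.71 CPM in controls and 1.54 CPM under the LOF label. Myeloperoxidase (mpx), an enzyme of neutrophil granules, was at 479 ± 85.6 CPM in controls and 368 ± 47.6 CPM under the LOF label. Control 1_2 was the highest library for the neutrophil sum, for mmp9 and for mmp25b. The neutrophil sums of the groups overlapped. In LOF-labelled 2_1 the sum was above those of controls 2_1 and 2_2, while its mmp9 and mmp25b levels were below theirs. The 7 macrophage markers summed to 15.4 to 38.2 CPM in controls and 15.8 to 64.9 CPM under the LOF label. For the 6 bone and osteoclast markers, of which 1 was at 0, the sums were 1160 to 1374 CPM and 1062 to 1845 CPM. Most of the latter was col10a1a, at a mean of 1125 of 1256 CPM in controls and 1243 of 1381 CPM under the LOF label. That sum is thus not a measure of osteoclasts. Of the other listed genes, ctsk was at 92.1 and 98.9 CPM, and acp5a, too sparse to test, at 0.554 and 0.410 CPM. The part of neutrophils in the values of mmp9 and mmp25b was not tested.

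**Figure D4:**
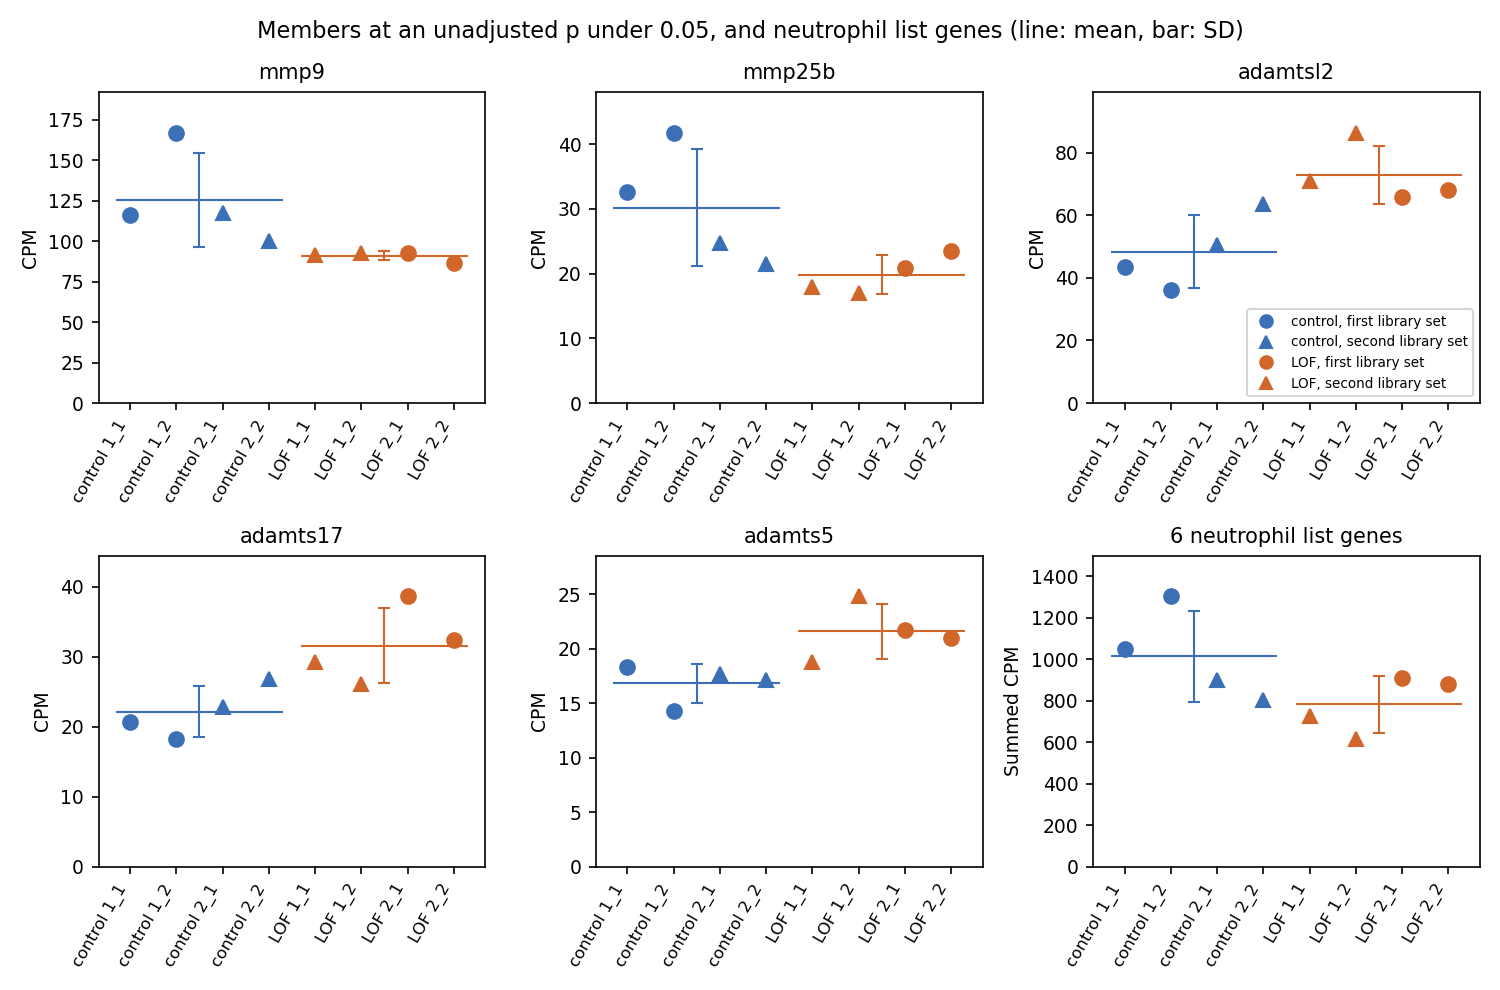
Level in each library, in CPM on axes that start at 0, of the 5 members at an unadjusted p under 0.05 and the summed CPM of 6 neutrophil list genes, with group means as lines and the SD as bars (n = 4). The 4 LOF-labelled values of mmp9 sit between 86.8 and 92.8 CPM, below every control. Those of adamtsl2 sit between 65.7 and 86.4 CPM, above every control.

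The mmp13a collagenase genes differed more between library sets than between groups. The fish has 2 neighbouring genes named mmp13a on the forward strand of chromosome 10 (GRCz11), ENSDARG00000012395 at 38593645 to 38602561 and ENSDARG00000114451 at 38610741 to 38620514, 8180 bases apart. Collagenase 3, the mammalian MMP13, cleaves fibrillar collagens and is prominent in cartilage and bone. The first gene was at 13.6, 17.4, 50.4 and 43.0 CPM in controls and 33.3, 30.4, 20.8 and 21.4 CPM under the LOF label. The second, chosen after its values were seen, was at 30.6, 50.0, 28.6 and 24.7 CPM in controls and 18.5, 18.6, 53.5 and 53.0 CPM under the LOF label. Each gene separated the 2 sets completely, the first being higher in the second set and the second higher in the first set. The log2 ratio of the second gene to the first, on the RPKM scale, was 0.57, 0.93, 0.77 and 0.72 in the 4 libraries of the first set and lay between −1.44 and −1.30 in those of the second. Between the groups the log2 fold changes were −0.25 (SE 0.40) and 0.11 (SE 0.40), neither called. How reads shared by the copies were counted is not given in the sources used here, so the split between them is uncertain. The third collagenase row, mmp13b, was too sparse to test.

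None of the other membrane-type genes was called, nor was the stromelysin-3 gene. In mammals stromelysin-3 is activated inside the cell by furin. Its gene mmp11b was at 36.2 ± 2.74 CPM in controls and 38.6 ± 5.30 CPM under the LOF label, a log2 change of 0.09 (SE 0.12). A gene of a lipid-anchored membrane-type protease, mmp17a, was at 5.74, 3.78, 7.89 and 6.80 CPM in controls and 9.10, 10.7, 7.95 and 6.19 CPM under the LOF label. Its groups overlapped through LOF-labelled 2_2, and the fold change of 0.47 (SE 0.25) had an adjusted p of 0.821 (edgeR). The membrane-type gene mmp15b, chosen after its values were seen, was at 28.5, 29.0, 33.0 and 29.7 CPM in the first set and 46.9, 52.5, 44.6 and 45.1 CPM in the second. Its level thus followed the sets, and its fold change between the groups was −0.05 (SE 0.22). Summed over the class, mmp levels were 658 ± 51.6 RPKM in controls and 675 ± 107 RPKM under the LOF label.

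The tested ADAMTS genes grouped here as proteoglycan-cleaving all had small positive fold changes, none of them called. Of all 15 tested adamts rows 12 lay above 0, over a range of −0.38 to 0.50, while 49.7% of all genes lay below 0. In mammals ADAMTS1, ADAMTS5, ADAMTS9 and ADAMTS15 cut aggrecan or versican, and with ADAMTS8 they are grouped here by textbook knowledge, a grouping made with the results known. Of 7 such rows 6 were tested, and their log2 fold changes ran from 0.18 to 0.41. They ran from 0.18 to 0.90 within the first set and from 0.12 to 0.31 within the second. The values 0.41 (SE 0.31) and 0.90 are those of a sparse adamts15b row, ENSDARG00000058252, chosen after its values were seen. It was at 5.43 ± 2.44 CPM in controls and 7.42 ± 1.60 CPM under the LOF label, and its annotation matches human ADAMTS8. The most abundant, adamts1, was at 201, 185, 137 and 163 CPM in controls and 161, 189, 218 and 218 CPM under the LOF label, a fold change of 0.20 (SE 0.14). These groups overlapped, with controls of the first set among the higher values. Its neighbour on chromosome 1, adamts5, was at 18.3, 14.3, 17.7 and 17.1 CPM in controls and 18.8, 24.8, 21.7 and 21.0 CPM under the LOF label. All LOF-labelled values of adamts5 lay above all controls, LOF-labelled 1_1 and control 1_1 being close. Its log2 fold change was 0.35 (SE 0.14, adjusted p = 0.691, edgeR), with 0.40 within the first set and 0.31 within the second. The better expressed of the adamts15b rows, ENSDARG00000033544, had 48.5 ± 12.98 CPM in controls and 57.1 ± 11.2 CPM under the LOF label, a fold change of 0.23 (SE 0.20). Summed, the 7 rows reached 80.7 to 100.1 RPKM in controls and 89.4 to 110.5 RPKM under the LOF label, ranges that overlap.

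Substrates of these enzymes were measured in the same libraries. Of 16 listed substrates and partners of the families, 14 were matched and tested, 7 above 0 and 7 below, with 1 called. That gene was aggrecan (acana), the large proteoglycan of cartilage, at 313 ± 14.0 CPM in controls and 147 ± 21.3 CPM under the LOF label (log2 fold change −1.09, SE 0.11, adjusted p = 0.0143, edgeR). Aggrecan is also among the cartilage markers, which were lower as a list. The second aggrecan gene, acanb, was at 35.8 ± 2.54 CPM in controls and 14.4 ± 5.33 CPM under the LOF label. Its log2 fold change was −1.31 (SE 0.22, adjusted p = 0.0714, edgeR), not called. The other listed proteoglycan of high level, versican b (vcanb), was at 318 ± 14.5 CPM in controls and 345 ± 34.8 CPM under the LOF label, a fold change of 0.12 (SE 0.10). The collagen gene col2a1a, also a cartilage marker, was at 6229 ± 656 CPM in controls and 4593 ± 416 CPM under the LOF label. Its log2 fold change was −0.44 (SE 0.12, adjusted p = 0.445, edgeR). The fibronectin gene fn1b was at 584 ± 71.2 CPM and 759 ± 65.5 CPM, a fold change of 0.38 (SE 0.11, adjusted p = 0.542, edgeR). Neither was called. Besides acana, the genes given here were chosen after their values were seen.

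Procollagen N-proteinases, which in mammals trim the amino-terminal propeptide of fibrillar procollagens, gave no common direction, with 2 of 3 above 0 and none called. The level of adamts3, whose mammalian counterpart also processes the lymphatic growth factor VEGF-C, was 67.4 ± 4.18 CPM in controls and 61.4 ± 9.87 CPM under the LOF label, a log2 change of −0.13 (SE 0.12). For adamts14 it was 36.9 ± 5.62 CPM and 41.6 ± 3.62 CPM, a fold change of 0.17 (SE 0.13). The fold change of adamts2, chosen after its value was seen, was 0.20 (SE 0.18). Summed, the 3 genes reached 36.03 ± 3.72 RPKM in controls and 36.8 ± 4.63 RPKM under the LOF label. Further rows that match mouse ADAMTS2, both above 0, are given under other observations.

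Genes linked to fibrillin microfibrils, a grouping made with the results known, included adamtsl2 and adamts17. These had 2 of the 3 largest positive fold changes among the tested members. In humans, ADAMTS10, ADAMTS17 and ADAMTSL2 are mutated in inherited disorders of short stature that involve fibrillin microfibrils. The adamtsl2 level was 43.5, 36.1, 50.4 and 63.5 CPM in controls and 70.9, 86.4, 65.7 and 68.1 CPM under the LOF label. Every LOF-labelled value was above every control, the nearest being LOF-labelled 2_1 and control 2_2. The means were 48.4 ± 11.6 and 72.8 ± 9.32 CPM (SD, n = 4), a log2 change of 0.58 (SE 0.16, adjusted p = 0.474, edgeR), with 0.75 within the first set and 0.47 within the second. The adamts17 level was 20.7, 18.3, 22.8 and 26.9 CPM in controls and 29.2, 26.1, 38.7 and 32.4 CPM under the LOF label. Its groups overlapped, since LOF-labelled 1_2 lay just below control 2_2. Its log2 fold change was 0.50 (SE 0.16, adjusted p = 0.543, edgeR), with 0.86 within the first set and 0.16 within the second.

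By contrast, adamts10 was nearly level, at 96.6 ± 6.10 CPM in controls and 95.3 ± 7.09 CPM under the LOF label, a log2 change of −0.02 (SE 0.09). With adamtsl3, at 46.4 ± 6.47 CPM and 54.0 ± 3.69 CPM, the fold change was 0.22 (SE 0.12, adjusted p = 0.821, edgeR). The third tested ADAMTS-like gene, adamtsl5, lay above 0 as well. Summed levels of the adamtsl class were 20.02, 15.6, 18.7 and 22.2 RPKM in controls and 25.1, 28.6, 23.5 and 23.7 RPKM under the LOF label. No LOF-labelled sum fell among the controls, a statement over 4 rows of which adamtsl2 and adamtsl3 made up 75.8% of the level. The adamts sum was 165 ± 9.24 RPKM in controls and 184 ± 11.2 RPKM under the LOF label, with overlapping values.

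Among the inhibitors, the tandem timp4 genes varied widely between libraries. TIMP4 is the family member known in mammals from heart and vessels. The annotation deposited with the counts, however, matches timp4.1 and timp4.3 to TIMP2 proteins of mammals and gives no match for timp4.2. In the zebrafish table timp4.1, timp4.2 and timp4.3 lie in a row on the forward strand of chromosome 11, from 691734 to 718748 (GRCz11), inside syn2b on the other strand, which had only 131 counts in the 8 libraries. The level of timp4.2 was 18.8, 13.4, 13.2 and 18.1 CPM in controls and 14.2, 10.8, 32.6 and 35.5 CPM under the LOF label. The high values were those of LOF-labelled 2_1 and 2_2, while LOF-labelled 1_1 lay among the controls and LOF-labelled 1_2 below them. The fitted log2 difference was 0.54 (SE 0.37, adjusted p = 0.883, edgeR), with 1.09 within the first set and −0.31 within the second, and it was 0.34 without LOF-labelled 2_1 and 0.27 without LOF-labelled 2_2. For timp4.1 the values were 2.75, 2.73, 8.77 and 10.3 CPM in controls and 6.07, 9.15, 3.84 and 2.83 CPM under the LOF label, which separates the sets and not the groups. Its fold change was −0.19 (SE 0.50), and that of timp4.3, at 3.82 ± 2.12 CPM and 2.96 ± 0.693 CPM, was −0.39 (SE 0.38).

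The second timp2 gene, timp2b, was at 40.4, 36.8, 37.7 and 30.0 CPM in controls and 31.1, 26.5, 34.9 and 34.4 CPM under the LOF label. These values overlapped, with a log2 change of −0.19 (SE 0.13). Summed, the timp class reached 128 ± 12.0 RPKM in controls and 143 ± 9.70 RPKM under the LOF label. The sum and the median of the class differ in sign, since timp2a and timp4.2, both above 0, carry most of the sum. In RPKM, timp2a was at 93.3 in controls and 104 under the LOF label, and timp4.2 at 16.9 and 24.8.

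**Figure D5:**
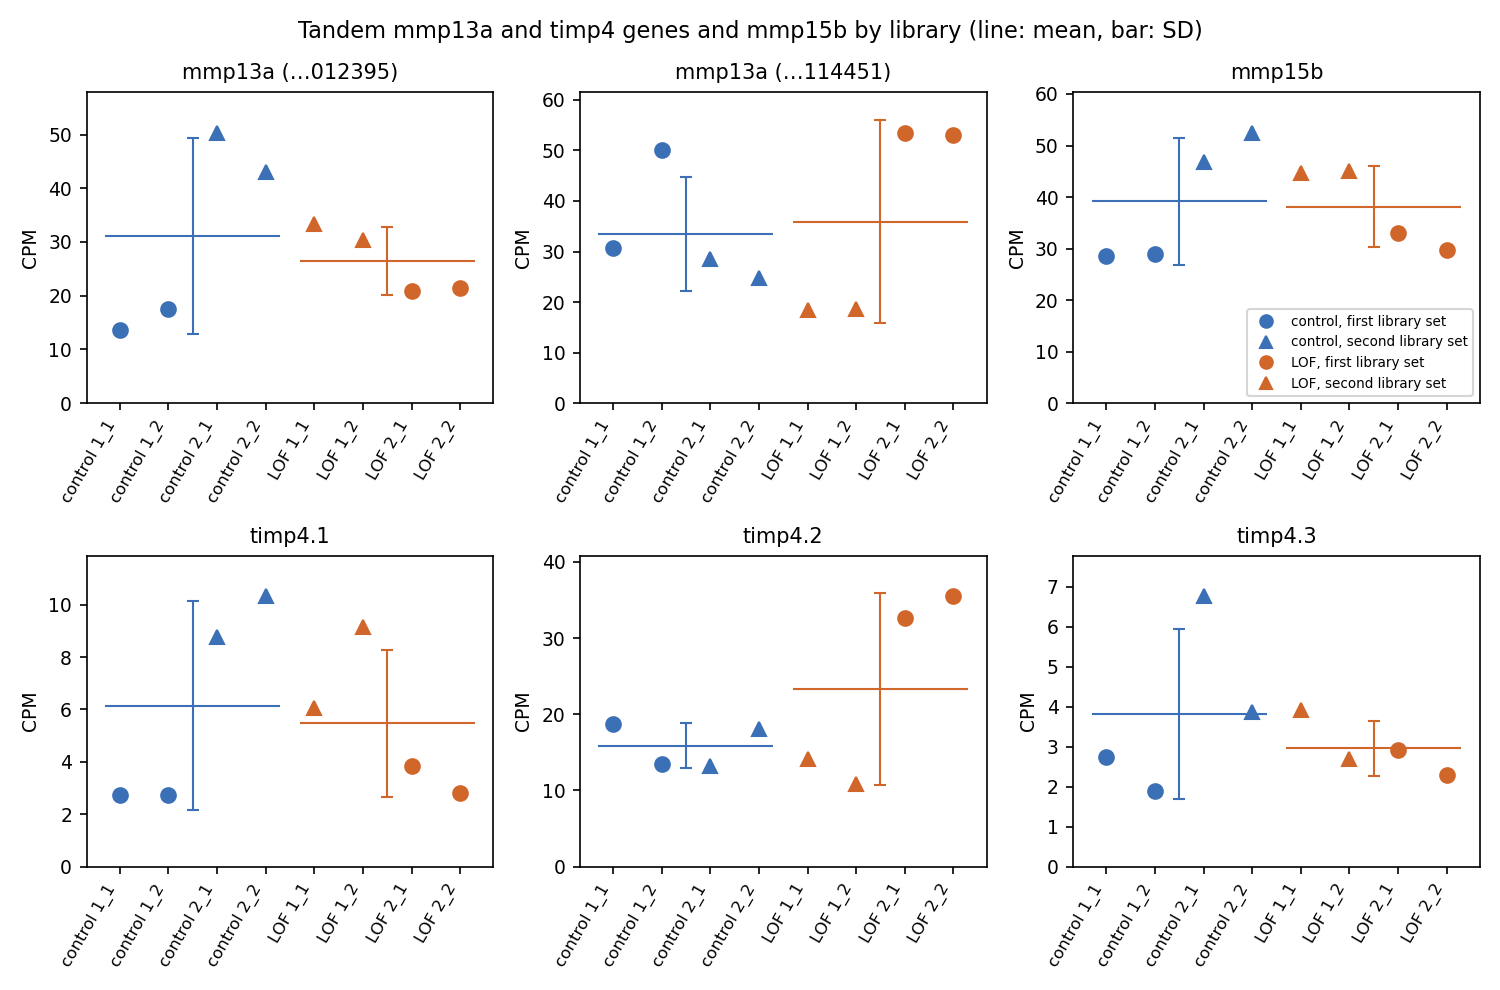
Level in each library, in CPM on axes that start at 0, of both mmp13a genes (by the end of their identifiers), mmp15b and the 3 timp4 genes, with group means as lines and the SD as bars (n = 4). Circles and triangles, the library sets, fall at different heights for mmp13a, mmp15b and timp4.1 in both groups, so the SD is wide beside the difference of the means.

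For 13 of the 36 tested members the values of the library sets did not overlap. Of these 12 were higher in the second set, 33.3% of the members against 13.1% of all genes tested, and 1, mmp13a ENSDARG00000114451, was higher in the first, 2.78% against 14.2%. The sets were drawn from the first component of all tested genes, so these shares describe the libraries and test nothing. Differences between sets, second minus first, were largest for timp4.1 (log2 difference 1.49) and the mmp13a genes (1.09 and −1.04), and for the most abundant members they were 0.38 for mmp2, 0.29 for mmp14a and 0.34 for timp2a. The endothelial markers, whose sum is mostly fli1a, differed in the same direction, at 621 to 648 CPM in the first set and 858 to 904 CPM in the second. This gap was not that of fli1a alone, which was at 425 to 444 CPM and 516 to 528 CPM. In the same order kdrl was at 31.3 to 44.7 CPM and 67.3 to 91.9 CPM, and cdh5 at 25.6 to 26.7 CPM and 42.9 to 53.1 CPM. The macrophage markers differed in reverse, at 33.5 to 64.9 CPM and 15.4 to 21.6 CPM. Larger still were the gaps of the erythrocyte markers, at 946 to 1328 CPM in the first set and 339 to 380 CPM in the second. The photoreceptor markers had such a gap too, at 239 to 653 CPM and 70.6 to 102 CPM. Most of the erythrocyte sum was slc4a1a, at a mean of 552 of 709 CPM in controls and 591 of 818 CPM under the LOF label. Another gene of that list, alas2, was at 0 in all libraries. What part these cells have in the members' values was not tested.

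The members not described singly were 14 tested rows. Of these 12 had a log2 fold change above 0 and 2 below, from −0.38 to 0.41, with adjusted p values of 0.813 to 0.998 (edgeR) and mean levels of 0.547 to 14.3 RPKM. The second mmp13a gene, the adamts15b row ENSDARG00000058252, mmp15b and adamts2, given above, are among them.

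Other genes of pericellular proteolysis were counted from a list of 56, of which 50 were matched and 39 tested. None was called, 25 lay above 0 and 14 below, with a median log2 fold change of 0.07. The smallest p values belonged to adam8a, a membrane protease of leukocytes in mammals, at 65.1 ± 8.18 CPM in controls and 53.1 ± 3.81 CPM under the LOF label (log2 fold change −0.29, SE 0.11), and to mmel1, a neprilysin-like peptidase, with 0.35 (SE 0.13). An abundant gene of the list was ctsla, which encodes a lysosomal cathepsin, at 476 ± 16.5 CPM and 457 ± 31.1 CPM. The membrane-anchored inhibitor reck, which restrains several matrix metalloproteinases in mammals and was chosen after its value was seen, was at 353 ± 26.4 CPM and 395 ± 35.6 CPM, a fold change of 0.17 (SE 0.10).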

How the data were processed

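The deposited values are raw counts per gene in 1 table. The submitters' processing notes name the build GRCz11. Aligner, counting tool and strand use: not given in the sources used here. Columns were matched to samples by their descriptions, with 0 sample columns left unassigned. Genes passing filterByExpr (15559) were compared with edgeR 4.0.16 (TMM, robust quasi-likelihood test, no replicate block) in R 4.3.3, and p-values were adjusted by Benjamini-Hochberg over all of them. CPM and RPKM were computed from TMM-scaled totals of the genes tested and the gene length deposited with the counts by the authors. SEs were derived from each fold change and its quasi-likelihood F. Described singly are tested members that were called, had an unadjusted p under 0.05, were among the 6 mmp, 5 adamts, 2 adamtsl or any timp members of highest RPKM, or among the 5 of largest fold change at a mean log2 CPM of at least 1. Any other was chosen after its values were seen, and the members and lists themselves were chosen with earlier results of these data known. Replicate numbers were not used to pair the samples, as the labels do not pair them across groups. Same-numbered libraries deviated in opposite directions from their group means, with correlations of −0.23 to −0.34. With 2 biological replicates a group these correlations depend on one another, so they do not settle the pairing. The 2 libraries of a biological replicate differed beyond sampling noise (chi-square per gene 2.53 to 5.77) but less than different replicates (13.7 to 24.4). The test was checked on simulated data, in which libraries were drawn independently, without correlation within biological replicates and without library sets. Alternatives were DESeq2 1.42.0, limma-voom (limma 3.58.1), other scalings, filters and blocks, sums per biological replicate and the omission of each library.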

Additional observations from a re-analysis of the deposited data

How the results depend on the processing

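No member was called under any alternative but one. With the library sets as a block (a crossed replicate block, chosen after seeing the data), 396 genes were called, 2.55% of all tested. Among them were 2 of the 36 tested members, adamtsl2 (log2 fold change 0.59, adjusted p = 0.00149, edgeR) and mmp25b (−0.57, adjusted p = 0.0102, edgeR). Like the main fit, this one takes the 2 libraries of a biological replicate as independent. With the replicate block of full numbers 0 of all genes were called (524 at an unadjusted p under 0.05), with counts summed per biological replicate 0 (299), with biological replicate as a random effect 2, without the low-count filter 32 and with DESeq2 96, against 14 in edgeR as reported. At an unadjusted p under 0.05, the sums per biological replicate left 1 of 41 tested members, beside 299 of 17445 genes (edgeR). The random effect left 2 of 36, beside 342 of 15559 genes (limma-voom). All of these members lay above 0, so mmp9 and mmp25b were not among them in either fit. Leaving out each library gave 0 to 20 called genes (0 when control 1_1, LOF-labelled 2_1 or 2_2 was omitted, with 854, 892 and 970 at an unadjusted p under 0.05), and 5, 8, 6 and 3 without controls 1_2, 2_1 and 2_2 and LOF-labelled 1_1. Of 22 members described, 16 kept their direction in all 19 alternatives. The others changed sign only when a library was left out: mmp2 ran from −0.028 to 0.16, mmp14b from −0.054 to 0.091, adamts10 from −0.072 to 0.022, mmp13a ENSDARG00000012395 from −0.49 to 0.077, timp4.1 from −0.57 to 0.18 and timp4.3 from −0.59 to 0.016. Over the same omissions 22 to 31 of 36 to 38 tested members lay above 0, while the mmp median ran from −0.041 to 0.13. An unadjusted p under 0.05 (edgeR) was found for 4 to 8 members, beside 838 to 1069 of 15765 to 15815 genes. Without changing sign, mmp14a ran from 0.039 to 0.22, timp2a from 0.052 to 0.25, adamts1 from 0.10 to 0.29 and mmp9 from −0.56 to −0.29. The timp median ran from −0.18 to 0.17, the highest without control 2_2. The causes were not tested. With 2 biological replicates a group and a correlation of 0.504 within them, small differences are below what these libraries can resolve.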

Other observations

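A further 6 rows of the table are described as members of these families but do not carry such names, and 5 of them were tested. None was called. One row that matches the ADAMTS2 protein of the mouse, si_ch211-154c21.1 on chromosome 14 (48580369 to 48588422, GRCz11), was at 6.21 ± 0.386 CPM in controls and 10.6 ± 0.732 CPM under the LOF label (mean ± SD, n = 4), a log2 change of 0.77 (SE 0.16, adjusted p = 0.181, edgeR). A second row with this match on chromosome 14, CABZ01080056.1 (48305439 to 48348973), was at 5.88 ± 0.764 CPM and 8.48 ± 0.833 CPM, a fold change of 0.54 (SE 0.18, adjusted p = 0.588, edgeR). The mmp16-like row CABZ01029422.1, the rows described as ADAMTS7 and mmp23ba had fold changes of 0.16, 0.20 and 0.19. These rows were chosen after their values were seen.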
